A study of Homo sapiens with 6 samples.

Results

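The genes described here were 9 members of the TGF-beta pathway, chosen by symbol out of 58302 gene IDs counted in each library. They were the ligand genes TGFB1, TGFB2 and INHBA, the receptor genes TGFBR1 and TGFBR2, the intracellular signal carriers SMAD2 and SMAD3, the inhibitor SMAD7 and the target gene TGFBI. All 9 symbols matched a single ID. Gene expression had been measured by bulk RNA sequencing in A375, an established human melanoma cell line, to ask how HMGB2, a DNA-bending chromatin protein, changes the state of melanoma cells. The empty vector group (3 libraries) was A375 stably carrying a vector without an insert, and the HMGB2 OE group (3 libraries) was A375 stably overexpressing HMGB2. Both lines shared the A375 background, lentiviral transduction and antibiotic selection. Each group was 1 stable line, the promoter of the HMGB2 vector was not given in the sources used here, and the replicates were described by the study as technical, so the p-values below measure only the spread between these samples.

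TGF-beta ligands are secreted in a latent form held by their own propeptide and by binding proteins in the matrix. Once released, a ligand dimer binds the type II receptor TGFBR2, which recruits and phosphorylates the type I receptor TGFBR1, and TGFBR1 in turn phosphorylates SMAD2 and SMAD3. These join SMAD4, enter the nucleus and act with partners such as AP-1 on target genes, among them SMAD7, which feeds back on the receptor. Activins, dimers of inhibin beta subunits such as the product of INHBA, use other receptors but the same SMAD2 and SMAD3. In melanoma the pathway is known for its association with matrix production and with invasive, dedifferentiated cells.

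Between 45925053 and 56755212 reads per library were assigned to genes. HMGB2 (chromosome 4) averaged 7514 ± 243 normalized counts (SD, n = 3) in empty vector libraries and 15517 ± 1177 in HMGB2 OE libraries, so it rose by 1.05 ± 0.10 (standard error, SE) on the log2 scale (DESeq2 adjusted p = 4.4e-22). Normalized counts are counts divided by the size factor of the library. A gene was called when its DESeq2 Wald test gave a Benjamini-Hochberg adjusted p under 0.05, and 930 of the 18836 genes tested were called (4.94%), 432 higher with HMGB2 OE (2.29%) and 498 lower (2.64%). The third library of each group stood apart. Over the 12134 genes that averaged at least 100 normalized counts, empty vector replicate 3 was the one farthest from the other libraries of its group for 66.9% of genes, and HMGB2 OE replicate 3 for 55.1%. Without empty vector replicate 3, 2854 of 16062 genes were called (17.8%), and with replicates 1 and 2 of both groups alone, 2621 of 15028 (17.4%). Results that rest on that library are therefore given with and without it. Of 8 melanocyte markers, MITF (normalized counts of 1381 to 1719) and S100B (3346 to 3841) were well measured. MLANA, TYR, TYRP1 and DCT were at or near 0. PMEL kept 3.37% of the reads in the strand-separated columns. SOX10 was listed at 0 in the column used, while the strand-separated columns held reads at it. Those columns can also hold reads of an overlapping antisense gene, so the levels of PMEL and SOX10 are not known. The summed immune markers stayed between 1.1 and 8.2 normalized counts and the endothelial ones between 80.6 and 109. Fibroblast markers summed to 1290 to 1317 with the empty vector and 1378 to 1638 with HMGB2 OE, epithelial markers to 958 to 1323 and 1061 to 1476, and none of these lists held a called gene. The epithelial sum hides KRT5, a basal keratin, which had 5.05, 11.5 and 279 normalized counts with the empty vector and 249.8, 199.9 and 289 with HMGB2 OE, so that empty vector replicate 3 stood with the HMGB2 OE libraries. The part of these markers in the results below was not tested.

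All 9 members passed the filter on low counts and received an adjusted p. Of them, 2 were called higher with HMGB2 OE, the target TGFBI and the receptor TGFBR2, and 0 were called lower. The shares of all tested genes called higher and lower were 2.29% and 2.64%. The members were chosen with earlier results of these data known, so their count cannot be weighed against these shares. By edgeR's quasi-likelihood test, under which 2.81% of all genes were called (1.28% higher and 1.52% lower), 1 member was higher (TGFBI) and 0 lower. At an unadjusted DESeq2 p under 0.05 there were 2 higher and 1 lower (INHBA), against 14.3% of all genes in either direction. The groups did not overlap for 2 of 9 members (22.2%), close to the 21.9% of all tested genes. The median log2 fold change of the members was 0.14, beside 0.0027 over all genes tested. In bulk libraries, fewer cells expressing a gene and less of its RNA per cell cannot be told apart.

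**Figure D1:**
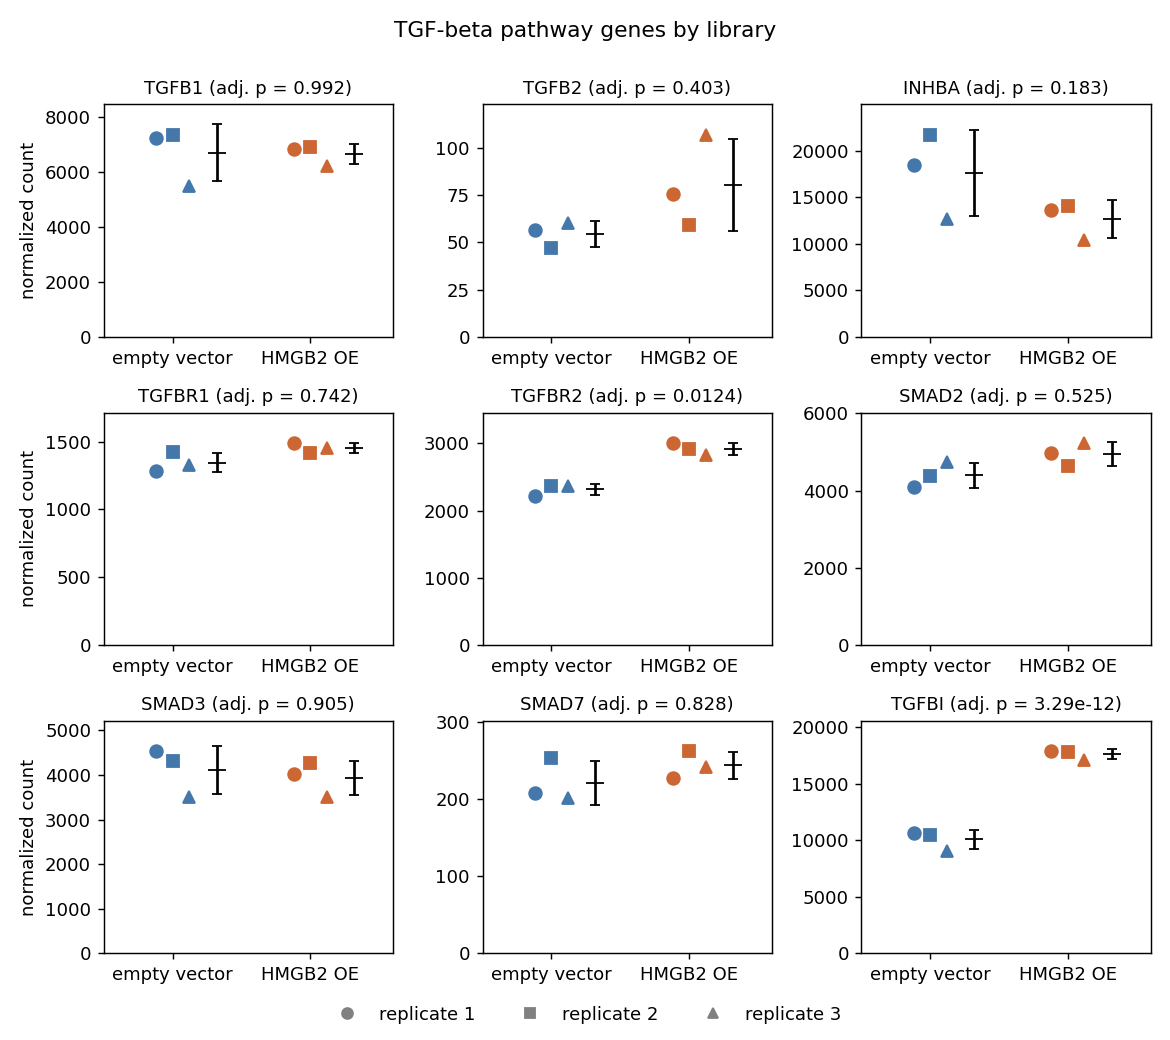
Normalized counts (linear axis from 0) of the 9 members in the 3 empty vector and 3 HMGB2 OE libraries, 1 panel per gene, with the marker shape giving the replicate number and the mean ± SD of each group drawn beside its points. TGFBI and TGFBR2 are the members whose groups do not overlap, and INHBA is lowest in the third library of each group.

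TGFBI (ENSG00000120708; hg38 chromosome 5, 136028988 to 136063818, plus strand) encodes a secreted matrix protein that binds collagen and integrins and was named for its induction by TGF-beta. Its normalized counts were 10667, 10469.5 and 9089 with the empty vector and 17894, 17831 and 17130.4 with HMGB2 OE. All 3 HMGB2 OE libraries lay far above all 3 empty vector libraries, and the range within each group was small beside the gap. The means were 10075 ± 860 (SD, n = 3) and 17618 ± 424, and the log2 fold change was 0.81 ± 0.10 (95% interval 0.60 to 1.01), or 1.75-fold (DESeq2 adjusted p = 3.29e-12; edgeR adjusted p = 0.0036). Leaving out each library in turn gave 0.74 to 0.85, and the call was kept each time.

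TGFBR2 (ENSG00000163513; hg38 chromosome 3, 30606601 to 30694142, plus strand), the receptor that binds the ligand first, had normalized counts of 2223, 2361 and 2360 with the empty vector and of 3006, 2911 and 2832 with HMGB2 OE. The groups did not overlap, and the lowest HMGB2 OE library was above the highest empty vector library by more than the range within either group. The means were 2315 ± 79.0 (SD, n = 3) and 2916 ± 87.2. The log2 fold change was 0.33 ± 0.09 (95% interval 0.15 to 0.52), 1.26-fold, with a DESeq2 adjusted p of 0.0124, but edgeR's adjusted p was 0.0742 and did not pass. Leaving out single libraries left the log2 fold change between 0.30 and 0.35, but among these fits the call held only without empty vector replicate 3 (DESeq2 adjusted p = 0.00258). It was lost without empty vector replicates 1 (0.365) and 2 (0.165) and without HMGB2 OE replicates 1 (0.387), 2 (0.249) and 3 (0.151), as DESeq2 adjusted p-values. Leaving out a single library other than empty vector replicate 3 left 1.97% to 2.58% of all genes called, beside 4.94% with all libraries. Calls lost in these fits, here and below, are to be read beside that share.

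TGFBR1 (ENSG00000106799; chromosome 9, 99104038 to 99154192, plus strand), the kinase that phosphorylates SMAD2 and SMAD3, was not called. Its normalized counts were 1283, 1423 and 1331 with the empty vector and 1491, 1414 and 1453 with HMGB2 OE. The groups overlapped through empty vector replicate 2, and the log2 fold change was 0.11 ± 0.10 (95% interval -0.09 to 0.31; DESeq2 adjusted p = 0.742).

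None of the 3 ligand genes was called. INHBA (ENSG00000122641; chromosome 7, 41667168 to 41705834, minus strand), the inhibin beta A subunit of activin A, had the highest normalized counts of them, at 18519.8, 21720.3 and 12637 with the empty vector and 13666, 14067 and 10379.9 with HMGB2 OE. The third library was the lowest of each group, and empty vector replicate 3 fell below HMGB2 OE replicates 1 and 2. The log2 fold change was -0.47 ± 0.20 (95% interval -0.86 to -0.09), with an unadjusted p of 0.0164, a DESeq2 adjusted p of 0.183 and an edgeR adjusted p of 0.263. Without empty vector replicate 3 the log2 fold change was -0.66 (DESeq2 adjusted p = 3.7e-06), and with replicates 1 and 2 alone it was -0.54 (DESeq2 adjusted p = 4.85e-11). In both of these fits INHBA was called lower and the members counted 2 higher and 1 lower, beside 8.31% and 9.46% of all genes without empty vector replicate 3 and 8.01% and 9.44% with replicates 1 and 2 alone.

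TGFB1 (ENSG00000105329; chromosome 19, 41301587 to 41353922, minus strand) had normalized counts of 7238, 7360.3 and 5511 with the empty vector and 6844, 6918 and 6234 with HMGB2 OE. Empty vector replicate 3 was the lowest of the 6 libraries and the other empty vector libraries were the highest, so that the HMGB2 OE libraries lay inside the empty vector range. The log2 fold change was -0.01 ± 0.14 (95% interval -0.28 to 0.26; DESeq2 adjusted p = 0.992), and its sign was not stable over the processing alternatives. TGFB1 shares 215 exon bases with HNRNPUL1 on the opposite strand and kept 76.4% of the reads that the strand-separated columns hold. The rest can include reads of HNRNPUL1, so the level of TGFB1 may be understated by an unknown amount.

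TGFB2 (ENSG00000092969; chromosome 1, 218345336 to 218444619, plus strand) was the ligand with the lowest counts, at 56.6, 46.9 and 60.1 normalized counts with the empty vector and 75.4, 59.1 and 107 with HMGB2 OE. HMGB2 OE replicate 2 lay below empty vector replicate 3, and the highest value was in HMGB2 OE replicate 3. The log2 fold change of 0.56 ± 0.30 had a 95% interval of -0.04 to 1.16 (DESeq2 adjusted p = 0.403), so a log2 difference near 1 and no change both lay within it. TGFB2 shares 1371 of its 6050 exon bases with TGFB2-OT1 on the same strand. Reads that fall in both genes are set aside, also in the strand-separated columns, so the level of TGFB2 may be understated.

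The 3 SMAD genes were not called. SMAD2 (ENSG00000175387; chromosome 18, 47808957 to 47931146, minus strand) had normalized counts of 4085, 4390.1 and 4736 with the empty vector and 4971, 4640.1 and 5238 with HMGB2 OE. HMGB2 OE replicate 2 fell within the empty vector range, and the log2 fold change was 0.17 ± 0.11 (95% interval -0.04 to 0.38; DESeq2 adjusted p = 0.525). SMAD3 (ENSG00000166949; chromosome 15, 67063763 to 67195173, plus strand) had 4538, 4306 and 3515 with the empty vector and 4011, 4262 and 3509 with HMGB2 OE. As with TGFB1 and INHBA, the third library was the lowest of each group. Its log2 fold change was -0.07 ± 0.14 (95% interval -0.34 to 0.20; DESeq2 adjusted p = 0.905). SMAD7 (ENSG00000101665; chromosome 18, 48919853 to 48950965, minus strand), which blocks the receptor and is itself induced by the pathway, had 208, 252 and 201 with the empty vector and 227, 262 and 241 with HMGB2 OE. The groups overlapped, with a log2 fold change of 0.14 ± 0.17 (95% interval -0.20 to 0.48; DESeq2 adjusted p = 0.828).

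**Figure D2:**
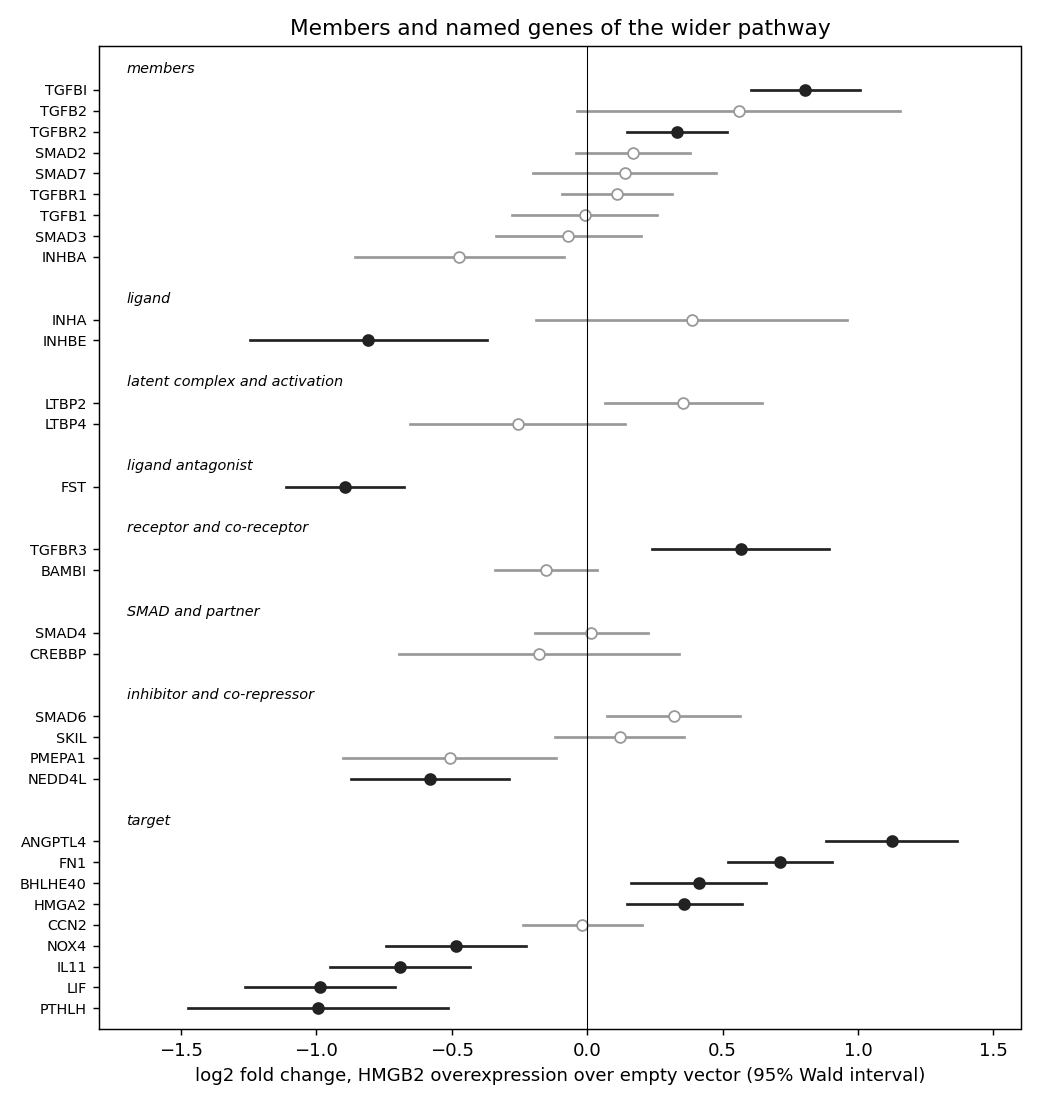
Log2 fold changes (HMGB2 OE over empty vector) with 95% Wald intervals (lines) for the 9 members and the named genes of the wider pathway list, grouped by role, with filled dark points for called genes and open grey points for the others. Among the members, the intervals of TGFBI (0.60 to 1.01) and TGFBR2 (0.15 to 0.52) lie above 0, that of INHBA (-0.86 to -0.09) lies below 0 without passing the adjusted threshold, and those of the other members include 0.

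To compare levels between genes, normalized counts were divided by the length of the canonical transcript in kilobases. With the empty vector TGFBI was highest at 3715 ± 317 normalized counts per kilobase (SD, n = 3), followed by INHBA (2915 ± 762) and TGFB1 (2411 ± 372). The spreads of TGFBI and INHBA overlapped, as did those of INHBA and TGFB1. SMAD3 (637 ± 83.0) and TGFBR2 (511 ± 17.5) followed, then TGFBR1 (207 ± 10.9), SMAD2 (127 ± 9.40), SMAD7 (66.0 ± 8.38) and TGFB2 (9.29 ± 1.16). The level of SMAD2 is uncertain, since its canonical transcript is annotated at 34626 bases. TGFB1 kept 76.4% of the reads in the strand-separated columns and INHBA 99.99%, so the order of these genes is uncertain too. The level of TGFB2 may be understated for the shared bases given above. With HMGB2 OE, TGFBI stood at 6496 ± 156, TGFB1 at 2398 ± 135 and INHBA at 2101 ± 335, so that the spreads of both ligands still overlapped, while TGFBR2 (644 ± 19.3) lay within the spread of SMAD3 (608 ± 59.3).

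The upstream sequences of both called members and of FST and IL11, which are described below, are shown because AP-1, a partner of the SMAD proteins, has its motif in 3 of them. They are the 250 bases before the transcription start in RefSeq (GRCh38.p14), written 5′ to 3′ on the strand of the gene, at chr3:30606351-30606600 (TGFBR2, plus), chr5:136028738-136028987 (TGFBI, plus), chr5:53480379-53480628 (FST, plus) and chr19:55370464-55370713 (IL11, minus). Capitals mark matches to the AP-1 motif TGANTCA or to the SMAD-binding element CAGAC, read on either strand.
TGFBR2 promoter: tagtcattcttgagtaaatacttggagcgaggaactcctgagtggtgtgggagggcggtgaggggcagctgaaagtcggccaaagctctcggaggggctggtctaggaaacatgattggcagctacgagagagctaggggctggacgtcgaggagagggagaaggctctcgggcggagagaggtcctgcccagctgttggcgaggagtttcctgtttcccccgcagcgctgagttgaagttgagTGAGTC
TGFBI promoter: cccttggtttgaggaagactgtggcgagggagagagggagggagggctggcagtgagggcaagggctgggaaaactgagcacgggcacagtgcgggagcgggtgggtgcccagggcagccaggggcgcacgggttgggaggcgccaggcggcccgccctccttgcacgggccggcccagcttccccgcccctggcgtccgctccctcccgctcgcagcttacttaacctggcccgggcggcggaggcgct
FST promoter: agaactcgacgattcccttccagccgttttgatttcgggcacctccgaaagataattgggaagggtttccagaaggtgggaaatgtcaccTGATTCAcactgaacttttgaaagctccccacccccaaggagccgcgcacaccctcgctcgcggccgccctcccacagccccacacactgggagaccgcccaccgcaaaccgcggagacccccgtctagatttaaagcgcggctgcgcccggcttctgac
IL11 promoter: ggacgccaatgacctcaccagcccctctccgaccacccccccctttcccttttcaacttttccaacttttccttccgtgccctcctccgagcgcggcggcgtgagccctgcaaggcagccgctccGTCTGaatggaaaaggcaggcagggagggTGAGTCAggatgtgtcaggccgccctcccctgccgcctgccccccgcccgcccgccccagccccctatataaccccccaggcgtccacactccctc
The search covered these bases and the 50 after the start. The motifs can overlap in their bases CA, and did not in the sequences shown. An AP-1 match was found for 1 of the 9 members, TGFBR2, where it spans the start itself and its last base is the first transcribed one, and in 2707 of 35116 RefSeq promoters (7.71%). Of the 12 called genes of the wider list described below, 9 had a promoter to search. FST and IL11 were the 2 with an AP-1 match (22.2%), and both are shown for that match. CAGAC was found for 5 of 9 members (TGFB2, INHBA, TGFBR1, SMAD3 and SMAD7) and in 45.3% of all promoters, and was absent from these windows of TGFBI and TGFBR2. Of the 9 called genes of the wider list that were searched, 5 had CAGAC (55.6%). The windows of INHBA and SMAD3 lie 2744 and 1839 bases from the gene start in GENCODE and belong to other transcripts. Those of the called genes TGFBR3, NOX4, NEDD4L, PTHLH and ANGPTL4 lie 20184, 5968, 3000, 2757 and 866 bases from it. A match is a string of letters and not evidence of binding.

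A wider list of 86 pathway genes that were not members was examined by role. An adjusted p was given to 81 of them. Of these, 5 were called higher and 7 lower with HMGB2 OE (14.8%, beside 4.94% of all genes), and 69 were not called. The list was chosen with earlier results of these data known, so its counts cannot be weighed against the shares of all genes. By edgeR 2 were higher and 4 lower, beside 1.28% and 1.52% of all genes. Without empty vector replicate 3 there were 11 higher and 18 lower, beside 8.31% and 9.46% of all genes. The median log2 fold change was -0.04. The groups did not overlap for 12 genes that were higher and 15 that were lower, beside 11.1% and 10.7% of all genes. The 12 called genes were all among these.

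Among 38 target genes, 4 were called higher and 4 lower (21.1%, beside 4.94% of all genes). By edgeR 2 were higher and 3 lower, beside 1.28% and 1.52% of all genes. ANGPTL4, a secreted inhibitor of lipoprotein lipase, had the largest log2 fold change of the list that was called. It had 365, 412 and 408 normalized counts with the empty vector and 859, 896 and 827 with HMGB2 OE, at 1.12 ± 0.12 (DESeq2 adjusted p = 9.78e-17; edgeR adjusted p = 0.00139). FN1, the matrix protein fibronectin, had 5128, 5217 and 4765 with the empty vector and 8462, 8551 and 7728 with HMGB2 OE, at 0.71 ± 0.10 (DESeq2 adjusted p = 1.97e-10; edgeR adjusted p = 0.00524). In ANGPTL4 and FN1, as in TGFBI, every HMGB2 OE library stood clear of every empty vector library.

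The chromatin protein gene HMGA2 had 6145, 7277 and 6149 normalized counts with the empty vector and 8229, 8443 and 8435 with HMGB2 OE, a log2 difference of 0.36 ± 0.11 (DESeq2 adjusted p = 0.0237; edgeR adjusted p = 0.0861). It was called without empty vector replicate 2 (DESeq2 adjusted p = 0.0119) or 3 (0.00744), but not without empty vector replicate 1 (0.378) or HMGB2 OE replicates 1 (0.25), 2 (0.251) or 3 (0.237). BHLHE40, a transcriptional repressor, had 1824, 1785 and 1426 with the empty vector and 2263, 2280.2 and 2156 with HMGB2 OE, at 0.41 ± 0.13 (DESeq2 adjusted p = 0.0305; edgeR adjusted p = 0.0954). Its call was kept without empty vector replicate 3 (0.0112) and lost without empty vector replicates 1 (0.0834) and 2 (0.0905) and HMGB2 OE replicates 1 (0.293), 2 (0.254) and 3 (0.15). Both genes were higher in every HMGB2 OE library than in any empty vector library.

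The 4 targets that fell were 3 genes for secreted signals and an oxidase. LIF, a cytokine of the gp130 family, had 4154, 3735 and 3239 normalized counts with the empty vector and 1977, 2029 and 1612 with HMGB2 OE, a log2 difference of -0.99 ± 0.14 (DESeq2 adjusted p = 1.1e-09; edgeR adjusted p = 0.00701). IL11, of the same family, had 2321, 1990.4 and 1866 with the empty vector and 1234, 1403 and 1191 with HMGB2 OE, at -0.69 ± 0.13 (DESeq2 adjusted p = 1.53e-05; edgeR adjusted p = 0.0182). Both calls were kept when any library was left out. PTHLH, parathyroid hormone-related protein, had 125, 105 and 146 with the empty vector and 64.5, 69.0 and 55.2 with HMGB2 OE, at -0.99 ± 0.25 (DESeq2 adjusted p = 0.00244; edgeR adjusted p = 0.0288). PTHLH kept 40.2% of the reads in the strand-separated columns, and its call was lost without empty vector replicate 1 (DESeq2 adjusted p = 0.0708) and HMGB2 OE replicates 1 (0.0526) and 3 (0.0691). NOX4, a hydrogen peroxide-producing oxidase, had 2469, 2508 and 2933 with the empty vector and 2083, 1661 and 1913 with HMGB2 OE, at -0.48 ± 0.13 (DESeq2 adjusted p = 0.00844; edgeR adjusted p = 0.0701). Its call was lost without HMGB2 OE replicate 2 (DESeq2 adjusted p = 0.181) or 3 (0.0748).

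CCN2, a matrix-associated target, stood at -0.02 on the log2 scale (DESeq2 adjusted p = 0.979), with a sign that changed when single libraries were left out. It kept 77.9% of the reads in the strand-separated columns.

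**Figure D3:**
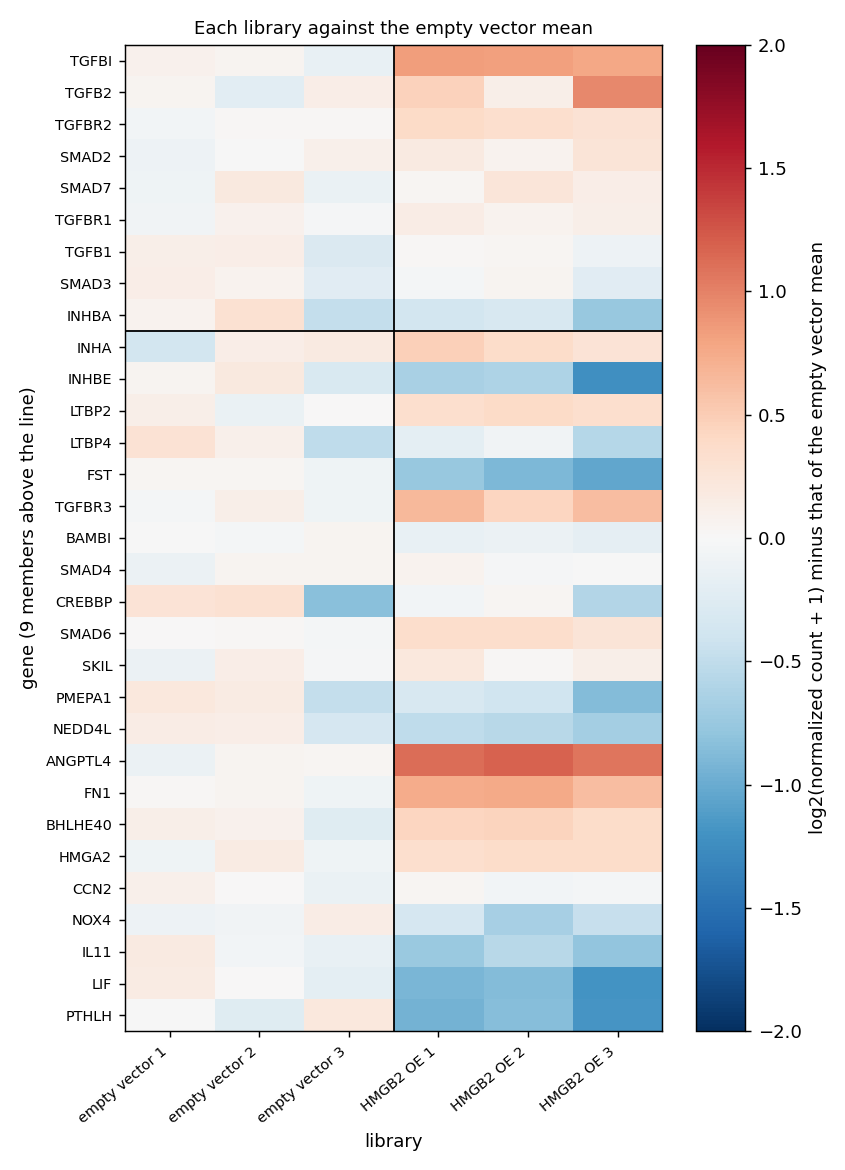
Difference in log2(normalized count + 1) between each of the 6 libraries (columns) and the empty vector mean, for the 9 members above the line and the named genes of the wider list below it, from blue (lower) to red (higher). ANGPTL4, TGFBI and FN1 are higher and LIF, IL11 and FST lower in all 3 HMGB2 OE libraries, and INHBA, PMEPA1 and NEDD4L are lower in empty vector replicate 3 than in the other empty vector libraries.

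Outside the targets, 1 ligand, 1 antagonist, 1 receptor and 1 inhibitor were called, beside 4.94% of all genes. FST encodes follistatin, a secreted protein that binds activins and keeps them from their receptors. It had 14382, 14395 and 13200.3 normalized counts with the empty vector and 8286, 7484 and 6813 with HMGB2 OE. The groups lay far apart, at means of 13992 ± 686 (SD, n = 3) and 7528, and the log2 fold change was -0.89 ± 0.11 (DESeq2 adjusted p = 7.38e-13; edgeR adjusted p = 0.00355). The call was kept when any library was left out. FST was the 1 called gene of 5 ligand antagonists, of which 3 had an adjusted p. INHBE, which encodes the inhibin beta E subunit, was the 1 called gene of 7 further ligands, of which 5 had an adjusted p. It had 288, 317 and 223 with the empty vector and 176, 179 and 117 with HMGB2 OE, at -0.81 ± 0.22 (DESeq2 adjusted p = 0.00969; edgeR adjusted p = 0.0721). The INHBE call was lost without empty vector replicates 1 (DESeq2 adjusted p = 0.138) and 2 (0.172) and HMGB2 OE replicate 3 (0.139). Among further ligands averaging at least 50 normalized counts, INHA, the inhibin alpha subunit, had the largest positive log2 value, at 0.39 (DESeq2 adjusted p = 0.637).

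TGFBR3, or betaglycan, a co-receptor that presents ligand and TGFB2 above all to TGFBR2, was the 1 called gene of 8 further receptors. It had 173, 193 and 168 normalized counts with the empty vector and 279.8, 240.3 and 272 with HMGB2 OE, a log2 difference of 0.57 ± 0.17 (DESeq2 adjusted p = 0.0193; edgeR adjusted p = 0.0552). Its call was kept without empty vector replicate 3 (DESeq2 adjusted p = 0.033) and lost without empty vector replicates 1 (0.28) and 2 (0.0968) and HMGB2 OE replicates 1 (0.327), 2 (0.109) and 3 (0.24), and with replicates 1 and 2 alone (0.0894). TGFBR2 and TGFBR3 were both higher in each HMGB2 OE library than in any empty vector library, and neither passed by edgeR.

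NEDD4L, a ubiquitin ligase that acts on SMAD2, SMAD3 and the receptors, was the 1 called gene of 12 inhibitors and co-repressors. It had 11166, 11072 and 7971 normalized counts with the empty vector and 7069, 6870.1 and 6283 with HMGB2 OE, a log2 difference of -0.58 ± 0.15 (DESeq2 adjusted p = 0.00405; edgeR adjusted p = 0.0603). The NEDD4L call was lost without empty vector replicates 1 (DESeq2 adjusted p = 0.107) and 2 (0.0725) and HMGB2 OE replicate 3 (0.0709). PMEPA1, a target that sequesters SMAD2 and SMAD3, had 7604, 7322 and 4707 with the empty vector and 5229, 4991 and 3589 with HMGB2 OE, at -0.51 ± 0.20 (DESeq2 adjusted p = 0.148). Its empty vector replicate 3 lay below HMGB2 OE replicates 1 and 2, and without that library the log2 fold change was -0.70 (DESeq2 adjusted p = 6.13e-06). SMAD6, the inhibitory SMAD of the bone morphogenetic protein branch, had 396, 401 and 385 with the empty vector and 502, 502 and 470.4 with HMGB2 OE. The groups did not overlap, but the log2 fold change of 0.32 ± 0.13 was not called (DESeq2 adjusted p = 0.145). SKIL, a co-repressor induced by the pathway, was at 0.12 (DESeq2 adjusted p = 0.767).

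None of the 11 genes for latent complexes and their activation was called in the fit of all libraries. Without empty vector replicate 3 there were 1 higher and 5 lower, beside 8.31% and 9.46% of all genes. Among genes of that role averaging at least 50 normalized counts, the extremes were the latent TGF-beta binding proteins LTBP2, at 0.36 on the log2 scale (DESeq2 adjusted p = 0.182), and LTBP4, at -0.26 (0.66, and 0.00525 without empty vector replicate 3, where it was -0.45). Of the 5 SMADs and nuclear partners, 4 had an adjusted p and none was called. SMAD4, the common partner, was at 0.01 (DESeq2 adjusted p = 0.981) and the coactivator CREBBP at -0.18 (0.869), which was -0.46 and called without empty vector replicate 3 (0.013). BAMBI, a decoy receptor, had the largest negative log2 value among further receptors averaging at least 50 normalized counts, at -0.15 (DESeq2 adjusted p = 0.517).

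**Figure D4:**
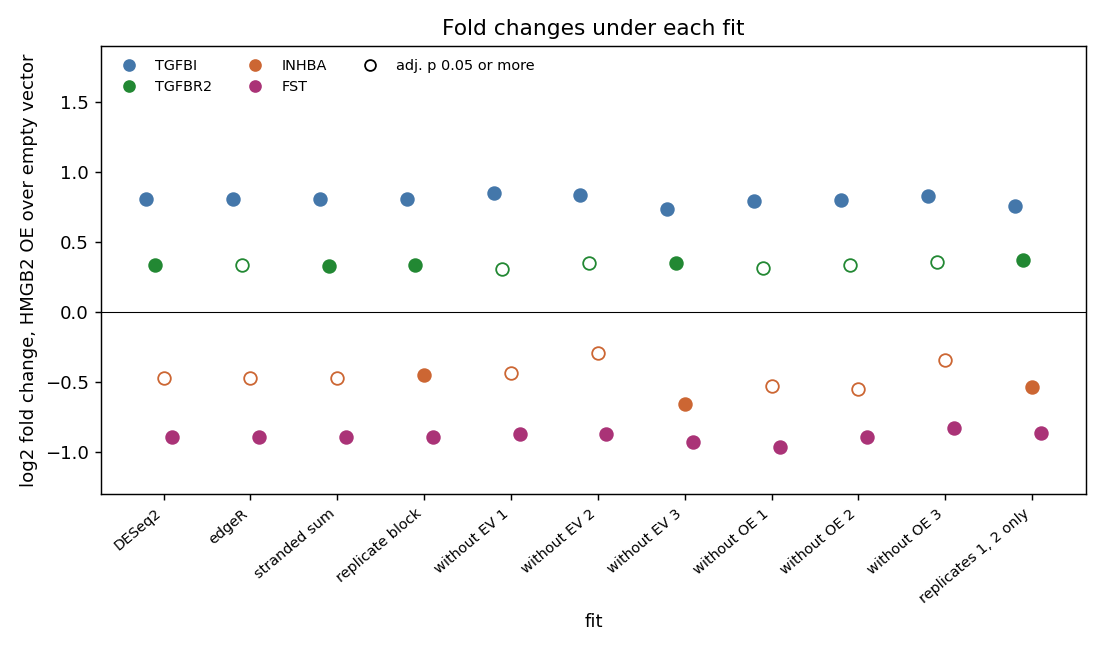
Log2 fold changes (HMGB2 OE over empty vector, EV) of TGFBI, TGFBR2, INHBA and FST by DESeq2 and edgeR on all libraries, with the strand-separated columns, with a replicate block, without each library in turn and with replicates 1 and 2 alone, as filled points where the adjusted p was under 0.05 and open points elsewhere. TGFBI and FST are filled in every fit shown, TGFBR2 keeps its value of 0.30 to 0.37 while its call comes and goes, and INHBA moves to -0.66 without empty vector replicate 3.

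Over the 12133 other genes that averaged at least 100 normalized counts, those whose pattern over the 6 libraries was most like TGFBR2 were EFNA3 (Pearson r = 0.9965), CNTN1 (0.9945) and PAM (0.9940), and most like TGFBI were FBXL7 (0.9946), PDE8B (0.9941) and NEFL (0.9938). These are descriptions over 6 libraries that share 2 lines, and 153 and 154 genes had an r over 0.95 to TGFBR2 and TGFBI.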

How the data were processed

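Poly(A) RNA of 6 A375 libraries was sequenced, and the authors trimmed reads with Trimmomatic and aligned them with STAR to hg38. The STAR version and the annotation release are not given in the sources used here. The authors deposited raw counts per gene without normalization, as whole numbers of reads that map once and fall in 1 gene. The column that takes reads of either strand was used, since the kit does not mark strand. Reads in exons shared by genes, of the same strand or of opposite strands, are set aside there as ambiguous (10.7% to 11.4% of reads). Such genes may therefore be undercounted, and antisense partners cannot be told apart. The strand-separated columns of a gene can also hold reads of an antisense gene in shared bases. Multimapped reads made up 2.58% to 10.6% of reads, most in HMGB2 OE replicate 3. The 4 summary lines were left out.

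Symbols and coordinates came from GENCODE 44 (57532 of 58302 IDs), promoters from RefSeq. DESeq2 1.42.0 in R 4.3.3 was run with default settings, as in the study, on group alone. An adjusted p was given to 18836 of the 32925 genes counted at all. SDs are over 3 libraries, and fold changes are unshrunken. Alternatives were edgeR 4.0.16 with TMM scaling, DESeq2 with TMM factors or on genes with 10 counts in 3 libraries, no independent filter, the sum of the strand-separated columns, the replicate number as a block, replicates 1 and 2 alone, and leaving out each library in turn. The DESeq2 and edgeR fits were also run on simulated counts of genes averaging at least 100, with the same spread setting for every gene. No simulated library stood apart, so that run cannot show how the fits handle empty vector replicate 3.

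The members and lists were chosen with earlier results of these data known. The genes named were HMGB2, the members, each called gene of the wider list, the largest rise and fall per role averaging at least 50 normalized counts, CCN2, SMAD4, SKIL, PMEPA1 and SMAD6, 1 further gene that is not reported here, and the 3 genes most correlated with each called member. KRT5 and the gp130 family genes were added after their values were seen.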

Additional observations from a re-analysis of the deposited data

How the results depend on the processing

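The calls of TGFBI, FST, ANGPTL4, FN1, LIF and IL11 were kept under all alternatives. TGFBR2 was not called by edgeR at a log2 fold change of 0.33, and leaving out single libraries gave 0.30 to 0.35. INHBA ranged from -0.66 to -0.30 over the same fits, was -0.54 and called with replicates 1 and 2 alone, and was -0.45 and called with the replicate block. Signs changed, near 0, for TGFB1 (0.0019 with the replicate block, -0.13 to 0.062 without single libraries), SMAD3 (-0.17 to 0.0049), SMAD4 (-0.045 to 0.044) and CCN2 (-0.076 to 0.036). The count of all genes called higher was 215 by edgeR, 886 with the replicate block, 1203 with replicates 1 and 2 alone and 155 to 1334 without single libraries, and of those called lower 255, 940, 1418 and 208 to 1520. Members called higher numbered 1 by edgeR and 1 to 2 without single libraries. Members called lower numbered 1 with the replicate block, 1 with replicates 1 and 2 alone and 0 to 1 without single libraries. Genes of the wider list called higher numbered 2 by edgeR, 9 with replicates 1 and 2 alone and 2 to 11 without single libraries, and those called lower 4, 16 and 3 to 18. The highest of these counts came without empty vector replicate 3, and the cause was not tested. Groups share replicate numbers, but same-numbered libraries deviated together at r = 0.0906, 0.142 and 0.349, and not every library correlated best with its own number, so the numbers were not taken to pair libraries. No scaling moved the median log2 fold change of all genes by more than 0.1. Among the members, depth limits TGFB2 most.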

Other observations

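LIF and IL11 signal through the shared receptor subunit gp130, encoded by IL6ST, and the other genes of that family were looked at after these values had been seen. Of 16 family genes, 12 had an adjusted p, of which 3 were called lower with HMGB2 OE and 3 higher by DESeq2 (2.64% and 2.29% of all genes). By edgeR 3 were lower and 1 higher (1.52% and 1.28% of all genes). LIF and IL11, for which the family was chosen, are among the 3 lower. That count was therefore partly fixed by the choice and cannot be weighed against the share of all genes. The genes that fell were all for ligands. Beside LIF and IL11, CLCF1 had 508, 561 and 442 normalized counts with the empty vector and 319, 367 and 297 with HMGB2 OE, a log2 difference of -0.62 ± 0.16 (DESeq2 adjusted p = 0.00379; edgeR adjusted p = 0.044).

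The genes that rose were all for receptors. LIFR, the receptor that pairs with gp130 to bind LIF, had 1062, 1229 and 1219 with the empty vector and 2016, 2022 and 2020 with HMGB2 OE, at 0.79 ± 0.11 (DESeq2 adjusted p = 1.8e-10; edgeR adjusted p = 0.00507). Its call was kept under all 13 alternatives. OSMR was at 0.41 ± 0.13 (DESeq2 adjusted p = 0.0266; edgeR adjusted p = 0.0916) and IL6R at 0.37 ± 0.12 (0.041 and 0.0893). Without single libraries, CLCF1 lost its call for empty vector replicates 1 (DESeq2 adjusted p = 0.0848) and 2 (0.127) and HMGB2 OE replicates 1 (0.103) and 3 (0.0986). OSMR lost its call without empty vector replicate 1 (0.298) and HMGB2 OE replicates 1 (0.318) and 2 (0.299), and IL6R in each such fit except the one without empty vector replicate 3 (0.0375), at 0.212 and 0.339 without empty vector replicates 1 and 2 and 0.321, 0.446 and 0.239 without HMGB2 OE replicates 1, 2 and 3. IL6ST itself was at 0.21 (0.281), SOCS3, a feedback inhibitor induced by these cytokines, at 0.34 (0.19) and STAT3 at 0.10 (0.834), none of them called with all libraries. Without empty vector replicate 3, IL6ST was called (DESeq2 adjusted p = 0.0243), as it was with replicates 1 and 2 alone (0.00481), and SOCS3 was called with replicates 1 and 2 alone (0.019).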
